A study of Homo sapiens with 6 samples.

Results

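GATA6 and the transcription factors that mark ovarian and Müllerian lineages were examined in A2780 cells, an established human ovarian cancer line that the labels call serous. The members were the genes whose symbol in the deposited table matched a list of 10, namely GATA6, GATA4, GATA2, GATA3, PAX8, WT1, SOX17, MECOM, EMX2 and NR2F2. Of the 10 genes, 8 had a row among the 16571 gene symbols of the table and together took up 14 of its 21368 transcript rows. WT1 and EMX2 had no row in the table used here and were not analysed. The list was drawn up with results of these libraries in view, so the difference of its members between the groups is given as a description, with no test.

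The libraries were 3 of A2780 cells carrying the pGIPZ-NC control vector and 3 carrying shUSP39, a short hairpin RNA against USP39, a spliceosome component. The study asked what loss of this component does to the transcripts of ovarian cancer cells. Both groups were infected with lentivirus, and in the study's methods the hairpins, of which there was more than 1, sat in the pGIPZ vector. Which hairpin the shUSP39 cells carried is not stated in the sources used here, nor whether the lines were 1 clone or a pool, and the design text speaks of biological replicates. USP39 was not analysed here, and the knockdown was therefore not checked in these libraries.

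GATA factors are zinc-finger proteins that bind DNA at the letters GATA. GATA4 and GATA6 act in the endoderm and in the gonad, and loss of GATA6 from the ovarian surface epithelium is known from ovarian carcinoma. GATA2 and GATA3 are best known from blood, urogenital and breast tissue. PAX8, SOX17, MECOM and EMX2 are used in the embryonic Müllerian duct or the tubal epithelium that derives from it, WT1 marks serous ovarian tumours and the mesothelium, and NR2F2 (COUP-TFII) is a nuclear receptor of the urogenital mesenchyme.

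The GATA paralogs are alike in sequence, which matters where reads are counted per gene, so a stretch that they share was compared. It codes for the second, DNA-binding zinc finger, from its first to its last cysteine. It is shown for the 3 GATA genes with enough counts to be tested (GRCh37, each stretch within an exon). In GATA6 it lies on chr18:19761441-19761515 (plus strand, exon 4), in GATA2 on chr3:128200686-128200760 (minus strand, exon 5) and in GATA3 on chr10:8111463-8111537 (plus strand, exon 5). Sequences run 5′ to 3′, and capitals mark the bases that differ from GATA6.
GATA6: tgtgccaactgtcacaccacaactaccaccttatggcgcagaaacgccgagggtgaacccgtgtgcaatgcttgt
GATA2: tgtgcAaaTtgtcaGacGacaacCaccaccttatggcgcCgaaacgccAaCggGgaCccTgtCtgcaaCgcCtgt
GATA3: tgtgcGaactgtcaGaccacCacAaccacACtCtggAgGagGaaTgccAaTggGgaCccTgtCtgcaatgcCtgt

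Of the 75 bases, GATA2 had 61 in common with GATA6 (81.3%) and GATA3 had 57 (76.0%). In each of them 22 of the 25 codons gave the same amino acid as in GATA6. Over the whole transcripts, the longest run of identical bases was 35 between GATA6 and GATA2, 29 between GATA6 and GATA3 and 18 between GATA2 and GATA3.

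The start of the GATA6 gene was read from the RefSeq promoter table (GRCh38.p14), since GATA6 is the gene that the member list opens with and its counts were high enough in the controls to show its loss. The 250 bases before the start, chr18:22169339-22169588 on the plus strand, are given with the only CCAAT in capitals.
GATA6 upstream: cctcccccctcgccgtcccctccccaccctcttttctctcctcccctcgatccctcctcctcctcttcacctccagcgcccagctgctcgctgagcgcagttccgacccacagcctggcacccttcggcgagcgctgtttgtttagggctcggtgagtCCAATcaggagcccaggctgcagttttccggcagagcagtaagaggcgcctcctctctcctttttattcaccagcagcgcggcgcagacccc

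The window held 64.4% G and C, against a median of 58.0% over all promoters of the table. The CCAAT letters began 92 bases before the start, and CCAAT on either strand (CCAAT or ATTGG, which do not overlap GATAA) was found in 32.0% of 35116 promoters. The letters GATAA or TTATC, the core of a GATA site, were not in the GATA6 window and were in 20.4% of promoters. Of the 20 promoters that the table lists for 8 of the members, 5 held GATAA and 8 held CCAAT on either strand.

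GATA6 was read at 288, 392 and 343 counts in the pGIPZ-NC libraries and at 1, 8 and 2 counts in the shUSP39 libraries. All 3 shUSP39 libraries were far below all 3 controls, and shUSP39 replicate 2 held most of what remained. Scaled to the library total as CPM (counts per 1e6 counts), the controls averaged 11.0 ± 1.78 (SD, n = 3) and the shUSP39 libraries 0.121 ± 0.125 (SD, n = 3). That is 90.5-fold lower in shUSP39, or a log2 fold change of -6.49 with a standard error of 0.32. Without shUSP39 replicate 2 the log2 fold change was -7.72. GATA6 (chr18:19749550-19782491, plus strand, 7 exons, GRCh37) has a single RefSeq messenger RNA and a single row, so the value does not rest on a choice of transcript.

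Per kilobase of transcript, GATA6 stood at 2.46, 3.28 and 3.35 CPM per kilobase in the pGIPZ-NC libraries. This placed it between the 26.2 and the 28.9 percentile of 3972 genes with 1 transcript and enough counts to be tested. Among those genes it was thus of low to moderate level in the control cells. In the shUSP39 libraries it was at 0.00868, 0.073 and 0.0188 CPM per kilobase, between the 0.604 and the 1.54 percentile. GATA6 is in this set through its control counts, so a low percentile with shUSP39 was to be foreseen and nothing is read from it.

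GATA3, which drives luminal and T-cell fates, was read at 30, 40 and 36 counts in the pGIPZ-NC libraries and at 0, 0 and 2 counts in the shUSP39 libraries. The groups did not overlap, and every shUSP39 library was at or under 3 counts, the most that a true count of 0 is taken to allow in this report (0.0911 to 0.106 CPM, depending on the library). The control level was 1.14 ± 0.183 CPM (SD, n = 3), and set against 3 counts per library GATA3 was at least 11.6-fold lower in shUSP39. Its fitted log2 fold change was -5.48 (SE 0.81), a value that depends on the prior count of the fit and was -8.16 without shUSP39 replicate 3, the only shUSP39 library with a GATA3 count.

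The single GATA3 row of the table is the RefSeq transcript with the longer coding sequence, of 1335 bases. The other main form has 1332, and the 3 bases between them, at chr10:8105956-8105958 (GRCh37, plus strand), are shown in capitals with 15 bases of coding sequence on each side.
GATA3 longer form: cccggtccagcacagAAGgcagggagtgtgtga

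The shorter form had no row here and was not analysed. GATA3 has 23 RefSeq messenger RNAs and 1 row, and how reads shared between transcripts were counted is not known. The GATA3 values therefore describe this row, not all GATA3 messenger RNA.

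GATA2, a blood and urogenital factor, went the other way, with 186, 219 and 215 counts in pGIPZ-NC and 363, 378 and 322 counts in shUSP39. Every shUSP39 library was above every control. The controls averaged 6.67 ± 0.915 CPM (SD, n = 3) and the shUSP39 libraries 11.6 ± 0.796 CPM (SD, n = 3), 1.74-fold higher (log2 fold change 0.78, SE 0.14). Both GATA2 transcripts with a row were higher in shUSP39. NM_032638.4 went from 3.84 to 7.44 CPM, 1.94-fold higher. NM_001145661.1 was at 2.83 and 4.18 CPM, 1.48-fold higher. NM_032638.4 thus took 57.3% ± 4.91 (SD, n = 3) of the GATA2 counts in pGIPZ-NC and 63.9% ± 2.46 (SD, n = 3) in shUSP39, and the ranges of these shares overlapped (52.5% to 62.3% and 62.0% to 66.7%).

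The counts of the GATA genes were then added up. Those of GATA2, GATA3 and GATA6 summed to 504, 651 and 594 in the pGIPZ-NC libraries and to 364, 386 and 326 in the shUSP39 libraries. The sum averaged 18.8 ± 2.81 CPM (SD, n = 3) in the controls and 11.8 ± 0.884 (SD, n = 3) with shUSP39, so the rise of GATA2 was smaller than the loss of GATA6. GATA6 gave 57.1%, 60.2% and 57.7% of these counts in the controls and 0.275%, 2.07% and 0.613% in the shUSP39 libraries. GATA2 gave 36.9%, 33.6% and 36.2% in the controls and 99.7%, 97.9% and 98.8% in the shUSP39 libraries. These are shares of counts and are not corrected for transcript length. Annotated genes on the opposite strand lie over exons of GATA6 and GATA2 (GATA6-AS1 and GATA2-AS1 among them), and the sources used here do not say whether reads were counted by strand, so reads of the antisense RNAs cannot be told apart from those of the members.

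**Figure D1:**
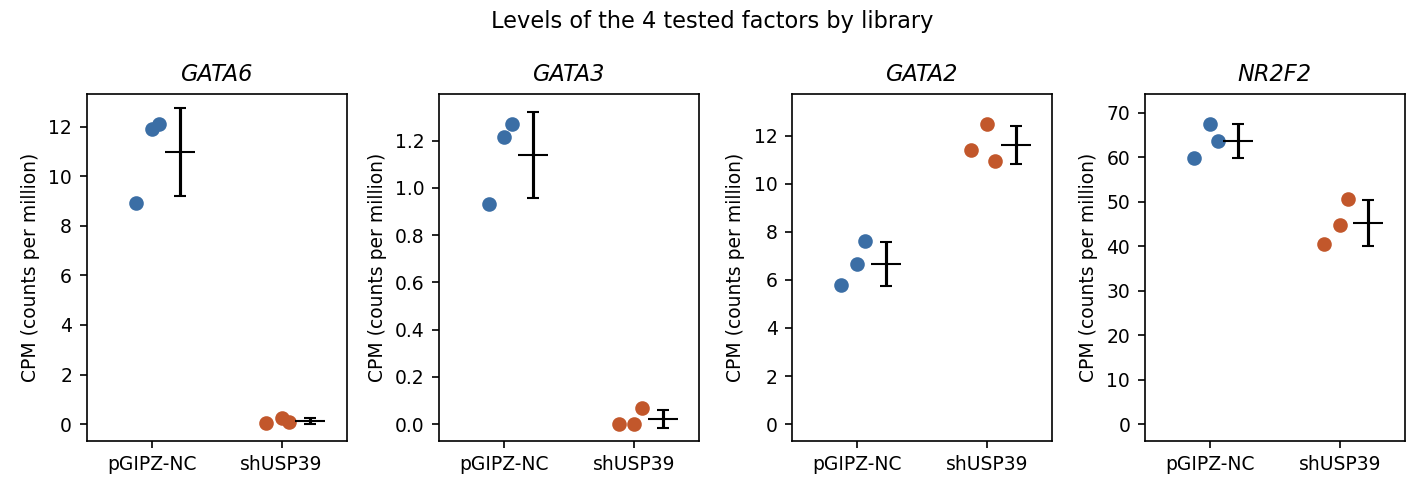
Level of GATA6, GATA3, GATA2 and NR2F2 in CPM (counts per 1e6 counts of the library, linear axes that differ between panels) in each of the 3 pGIPZ-NC (blue) and 3 shUSP39 (orange) libraries, with the mean and SD beside the points. GATA6 and GATA3 lie near 0 in all shUSP39 libraries, GATA2 is higher there (11.6 against 6.67 CPM) and NR2F2 is lower (45.3 against 63.7 CPM).

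NR2F2, the nuclear receptor COUP-TFII, was the member with the most counts. It was read at 1931, 2225 and 1802 counts in pGIPZ-NC and at 1284, 1351 and 1491 counts in shUSP39. The groups did not overlap, but the step was small beside that of GATA6. The controls averaged 63.7 ± 3.82 CPM (SD, n = 3) and the shUSP39 libraries 45.3 ± 5.18 CPM (SD, n = 3), 1.41-fold lower (log2 fold change -0.52, SE 0.08). Of its 4 transcript rows, NM_021005.3 held 93.8% ± 0.0691 (SD, n = 3) of the counts in pGIPZ-NC and 91.8% ± 1.52 (SD, n = 3) in shUSP39. This transcript carried the difference, going from 59.8 to 41.6 CPM. The next, NM_001145157.1, was at 3.45 ± 0.255 and 3.20 ± 0.00708 CPM (SD, n = 3), close to level.

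PAX8, the Müllerian factor used to diagnose serous carcinoma, was read at 5, 1 and 0 counts in pGIPZ-NC and at 0, 1 and 6 counts in shUSP39. The groups overlapped and no group stood above the other. MECOM, a zinc-finger oncogene amplified in some ovarian tumours, had 4, 3 and 2 counts in pGIPZ-NC and 0, 2 and 1 counts in shUSP39, spread over 3 transcript rows. SOX17, an endoderm and tubal factor, had 0 counts in every pGIPZ-NC library and 0, 3 and 1 counts in shUSP39. GATA4, the closest relative of GATA6 in the gonad, had 0 counts in every pGIPZ-NC library and 0, 2 and 0 counts in shUSP39. None of these 4 factors had the counts to enter the fit, and a difference between the groups was not detectable at this depth. The controls at 0 allow up to 3 counts, which is 0.0911 to 0.106 CPM.

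The counts of SOX17 and GATA4 came from shUSP39 replicates 2 and 3, which differed from the other libraries in how many genes were detected. In total 12662 to 12809 genes had at least 1 count in the pGIPZ-NC libraries, and 12819, 15446 and 14890 genes had in shUSP39 replicates 1, 2 and 3. Of 2773 genes at 0 in every control, 2277 and 1864 had counts in shUSP39 replicates 2 and 3, against 333 in shUSP39 replicate 1. Whether these extra detections have a part in the low counts of SOX17, GATA4 and PAX8 was not tested. Without both libraries, GATA6 had a log2 fold change of -8.30 and NR2F2 of -0.68, so both were as far apart or further in shUSP39 replicate 1 alone.

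**Figure D2:**
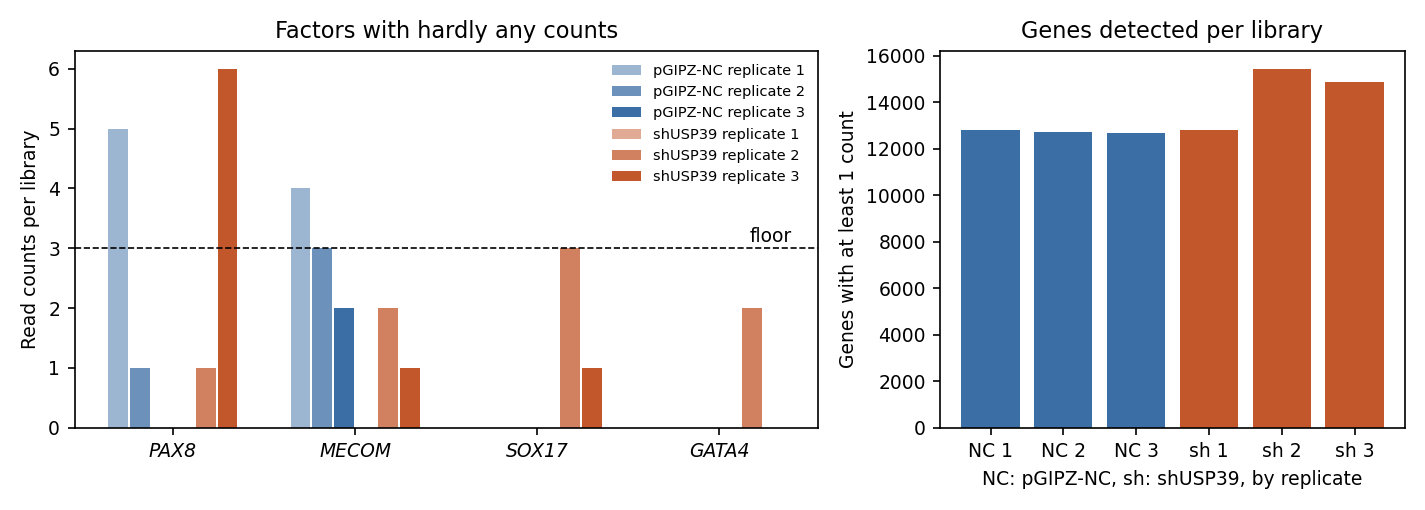
Left, read counts per library of PAX8, MECOM, SOX17 and GATA4, with the floor of 3 counts as a dashed line. Right, number of genes with at least 1 count in each library. No factor exceeds 6 counts, and shUSP39 replicates 2 and 3 detect 15446 and 14890 genes where the other libraries detect 12662 to 12819.

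Library totals ran from 28294819 to 32939264 counts. In a fit of edgeR's quasi-likelihood test over all 10695 genes with enough counts, 728 genes (6.81%) had an adjusted p under 0.05 and a difference of at least 2-fold, made up of 484 higher (4.53%) and 244 lower (2.28%) in shUSP39. At the adjusted p alone 3598 genes (33.6%) passed, 1726 (16.1%) of them higher and 1872 (17.5%) lower. All tested genes had a median log2 fold change of 0.009. The groups did not overlap in 44.5% of tested genes.

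Of the members, 4 were tested and 2, GATA6 and GATA3, were past both limits, both lower in shUSP39, against 6.81% of all tested genes in either direction and 2.28% lower. The groups did not overlap for all 4 tested members, against 44.5% of all tested genes (20.3% lower and 24.1% higher in shUSP39). The members were chosen from this contrast, so nothing is read from either count.

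The genes whose pattern over the 6 libraries was nearest to that of GATA6 were taken by the distance of their log2 CPM after each gene was centred on its pGIPZ-NC mean. Nearest was PCDH9, a protocadherin (distance 0.898), with 321, 345 and 254 counts in pGIPZ-NC and 1, 4 and 2 in shUSP39. HOXD13, a posterior homeobox factor (distance 1.22), had 146, 142 and 110 counts in pGIPZ-NC and 0, 4 and 0 in shUSP39. In both, as in GATA6 and the genes named next, shUSP39 replicate 2 held the most of what was left. That library also had counts in 2277 of the 2773 genes at 0 in every control. AARD (distance 1.35) had 534 to 589 counts in pGIPZ-NC and 4 to 8 in shUSP39. PDE4B, a cyclic AMP phosphodiesterase (distance 1.52), and TMEM207 (distance 1.88) were each at 0 to 2 counts in shUSP39, at least 17.9-fold and at least 14.8-fold lower. GATA6 and its 5 nearest genes were all between 0 and 8 counts in every shUSP39 library. The genes were chosen for their nearness to GATA6, so these low counts follow from the choice.

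**Figure D3:**
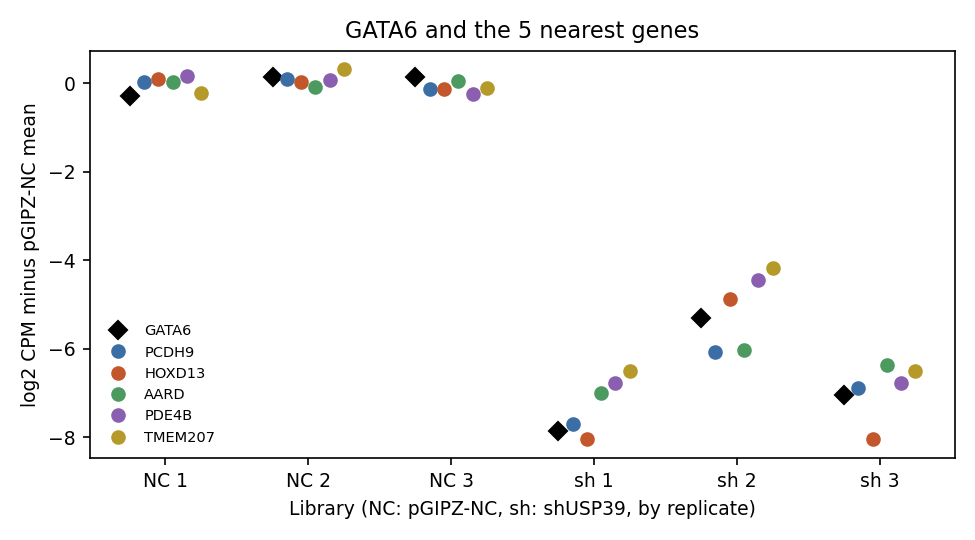
Log2 CPM of GATA6 (black diamonds) and its 5 nearest genes in each library, each gene minus its own pGIPZ-NC mean, with 0.5 added to the counts. All 6 genes lie near 0 in the controls, and in the shUSP39 libraries GATA6 lies at -7.86, -5.31 and -7.04.

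Next, the genes related to the members by sequence were described, from a list of 13 paralogs. This list and those that follow were written from textbook roles with earlier results of these data known. Their counts beside all tested genes are therefore a description, not a test of the lists. Of these, 12 had a row, 7 were tested, 1 was higher and 3 were lower at the adjusted p, against 16.1% higher and 17.5% lower of all tested genes. Their median log2 fold change was -0.20, against 0.009 over all tested genes. NR2F1, the closest paralog of NR2F2 and also a nuclear receptor, fell from 28.4 ± 2.11 to 9.70 ± 0.541 CPM (SD, n = 3), a log2 fold change of -1.57 (SE 0.10, edgeR adjusted p = 1.39e-12). The 3 pGIPZ-NC libraries held 844, 946 and 859 NR2F1 counts and the shUSP39 libraries 311, 276 and 300, so the groups did not overlap.

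SOX7, a relative of SOX17, rose from 1.43 ± 0.536 to 3.02 ± 0.670 CPM (SD, n = 3), with log2 fold change 1.04 (SE 0.30, edgeR adjusted p = 0.00758). Without shUSP39 replicate 2 SOX7 had an edgeR adjusted p of 0.0646. SOX18 (log2 fold change -0.23, edgeR adjusted p = 0.00442) and EGR1 (-0.20, adjusted p = 0.000315), a zinc-finger factor related to WT1, fell slightly. NR2F6, another relative of NR2F2, had a log2 fold change of -0.09 and did not pass (edgeR adjusted p = 0.0505), although it did without pGIPZ-NC replicate 1 (0.0309) or shUSP39 replicate 3 (0.0297). The GATA paralogs GATA1 and GATA5 were not tested, at 0, 0 and 1 counts in pGIPZ-NC and 1, 1 and 10 in shUSP39 for GATA1 and at most 2 counts in any library for GATA5.

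Cofactors and partners of GATA proteins made up a list of 24 genes, of which 21 had a row and 15 were tested. At the adjusted p 3 were higher and 2 were lower, and 10 did not pass, a share of 33.3% against 33.6% of all tested genes, so the count did not set the list apart. The list's median log2 fold change was 0.12. Without pGIPZ-NC replicate 3 the count of those that passed was 3. HAND2, a helix-loop-helix factor that acts with GATA4 and GATA6 in heart and uterus, was the only gene of the list past both limits, and without shUSP39 replicate 3 there were 2. It fell from 430, 440 and 336 counts in pGIPZ-NC to 105, 87 and 133 in shUSP39 (log2 fold change -1.88, SE 0.16, edgeR adjusted p = 5.65e-10). The partners with the most counts were near level. EP300, a histone acetyltransferase, was at 516 ± 5.65 and 497 ± 20.4 CPM (SD, n = 3; edgeR adjusted p = 0.0841), and passed without shUSP39 replicate 2 (edgeR adjusted p = 0.0329). MED1, a Mediator subunit, had a log2 fold change of -0.08 (adjusted p = 0.0778 by edgeR).

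Endoderm genes linked to GATA4 and GATA6 made up a list of 36, of which 28 had a row and only 8 had the counts to be tested. At the adjusted p 2 were higher and 4 were lower, against 16.1% and 17.5% of all tested genes, and 3 of the 8 (2 higher, 1 lower) were past both limits, against 6.81%. Without shUSP39 replicate 1 those past both limits were 5, of which 4 were higher. APOE, the apolipoprotein of the yolk sac and liver, fell from 2.34 ± 0.499 to 0.543 ± 0.276 CPM (SD, n = 3), with log2 fold change -2.13 (SE 0.38, edgeR adjusted p = 6.47e-05). LAMB1, a laminin chain of the basement membrane, rose from 73.0 ± 4.71 to 214 ± 3.47 CPM (SD, n = 3), with log2 fold change 1.53 (SE 0.05, edgeR adjusted p = 1.31e-18). Its partner chain LAMC1 was at 889 ± 8.59 and 848 ± 20.1 CPM (SD, n = 3; log2 fold change -0.09, edgeR adjusted p = 0.0193), and LAMC1 did not pass without pGIPZ-NC replicate 2 (edgeR adjusted p = 0.0688) or shUSP39 replicate 3 (0.0716).

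KLF5, an epithelial zinc-finger factor, was at 0, 1 and 1 counts in pGIPZ-NC and at 23, 14 and 18 in shUSP39, at least 6.20-fold higher (edgeR adjusted p = 0.000266). It had enough counts to be tested only through the shUSP39 libraries. FOXA1, a pioneer factor of endoderm, fell from 72.3 ± 3.23 to 50.8 ± 0.358 CPM (SD, n = 3), with log2 fold change -0.53 (SE 0.06, edgeR adjusted p = 9.01e-08). HHEX, a homeobox factor of early endoderm, had a log2 fold change of -0.21 (edgeR adjusted p = 0.0333) and its groups overlapped. Leaving out any library but pGIPZ-NC replicate 3 or shUSP39 replicate 1 took HHEX to edgeR adjusted p values of 0.0612, 0.222, 0.0715 and 0.177. The tested genes of the list moved in each direction, and whether GATA6 has a part in their differences was not tested.

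Gonadal and steroidogenic genes made up a list of 32, of which 26 had a row and 10 were tested. At the adjusted p 2 were higher and 3 were lower, against 16.1% and 17.5% of all tested genes, and the list's median log2 fold change was 0.07. INHA, the inhibin alpha subunit, rose from 12, 8 and 17 counts in pGIPZ-NC to 38, 60 and 52 in shUSP39 (log2 fold change 2.00, SE 0.44, edgeR adjusted p = 0.000752). LHX9, a homeobox factor of the early gonad, fell from 42, 42 and 16 counts to 5, 12 and 13 (log2 fold change -1.69, SE 0.53, edgeR adjusted p = 0.0143). LHX9 did not pass without pGIPZ-NC replicate 1 (edgeR adjusted p = 0.0857), pGIPZ-NC replicate 2 (0.0885) or shUSP39 replicate 1 (0.0714). SIX4, a homeobox factor of gonad formation, fell from 140 ± 8.97 to 118 ± 4.29 CPM (SD, n = 3; log2 fold change -0.27, edgeR adjusted p = 0.000128). CBX2, a Polycomb subunit, was at 248 ± 8.95 and 267 ± 10.5 CPM (SD, n = 3; edgeR adjusted p = 0.119). The steroidogenic regulator NR5A1 and the enzymes CYP11A1 and CYP17A1, named after their values were seen, had at most 5 counts in any library. They do not stand for the list. FOXL2 and AMH, also named after their values were seen, were well above this. FOXL2 had 2639 to 2971 counts in pGIPZ-NC and 2729 to 3049 in shUSP39, and its groups overlapped. AMH rose from 324 to 401 counts in pGIPZ-NC to 532 to 597 in shUSP39 (log2 fold change 0.71, edgeR adjusted p = 1.19e-05).

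Müllerian duct and retinoid patterning genes gave the most tested genes, 17 of 26 listed, and 22 had a row. At the adjusted p 7 were higher and 5 were lower, against 16.1% and 17.5% of all tested genes, and 4 were higher and 3 lower past both limits, against 4.53% and 2.28% of all tested genes. Their median log2 fold change was 0.06. WNT5A, a Wnt ligand of duct outgrowth, fell from 136, 150 and 141 counts in pGIPZ-NC to 3, 5 and 1 in shUSP39, 46.8-fold lower in CPM (log2 fold change -5.51, SE 0.39, edgeR adjusted p = 1.06e-11). LHX1, a homeobox factor of the duct epithelium, fell from 58, 72 and 47 counts to 0, 12 and 12 (log2 fold change -2.84, SE 0.55, edgeR adjusted p = 0.000209). MEIS2, a HOX cofactor, fell from 53, 86 and 60 counts to 14, 28 and 25 (log2 fold change -1.55, SE 0.36, edgeR adjusted p = 0.00126).

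The genes of this list that rose past both limits were the homeobox factors MSX1 and MSX2, the retinoic acid carrier CRABP2 and the hedgehog ligand IHH. MSX1 rose from 1.36 ± 0.326 to 7.46 ± 1.34 CPM (SD, n = 3), with log2 fold change 2.43 (SE 0.22, edgeR adjusted p = 1.63e-09). MSX2 rose from 4.58 ± 0.782 to 12.6 ± 0.490 CPM (SD, n = 3), with log2 fold change 1.43 (SE 0.15, edgeR adjusted p = 1.6e-08). CRABP2 rose from 4.74 ± 0.430 to 13.1 ± 1.36 CPM (SD, n = 3), with log2 fold change 1.45 (SE 0.14, edgeR adjusted p = 6.88e-09). IHH rose from 4, 5 and 13 counts to 28, 29 and 24 (log2 fold change 1.84, SE 0.58, edgeR adjusted p = 0.0148). Leaving out pGIPZ-NC replicate 1, pGIPZ-NC replicate 2 or shUSP39 replicate 2 took IHH to edgeR adjusted p values of 0.0815, 0.0813 and 0.0539.

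The genes of the Müllerian list with the most counts moved less. ALDH1A1, a retinaldehyde dehydrogenase, fell from 2576 ± 96.0 to 2003 ± 18.0 CPM (SD, n = 3; log2 fold change -0.39, edgeR adjusted p = 5.49e-11). PBX2, a HOX cofactor, fell with a log2 fold change of -0.47 (adjusted p = 1.33e-09 by edgeR), and MEIS1, which pairs with PBX proteins, rose with one of 0.61 (adjusted p = 4.86e-07 by edgeR).

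**Figure D4:**
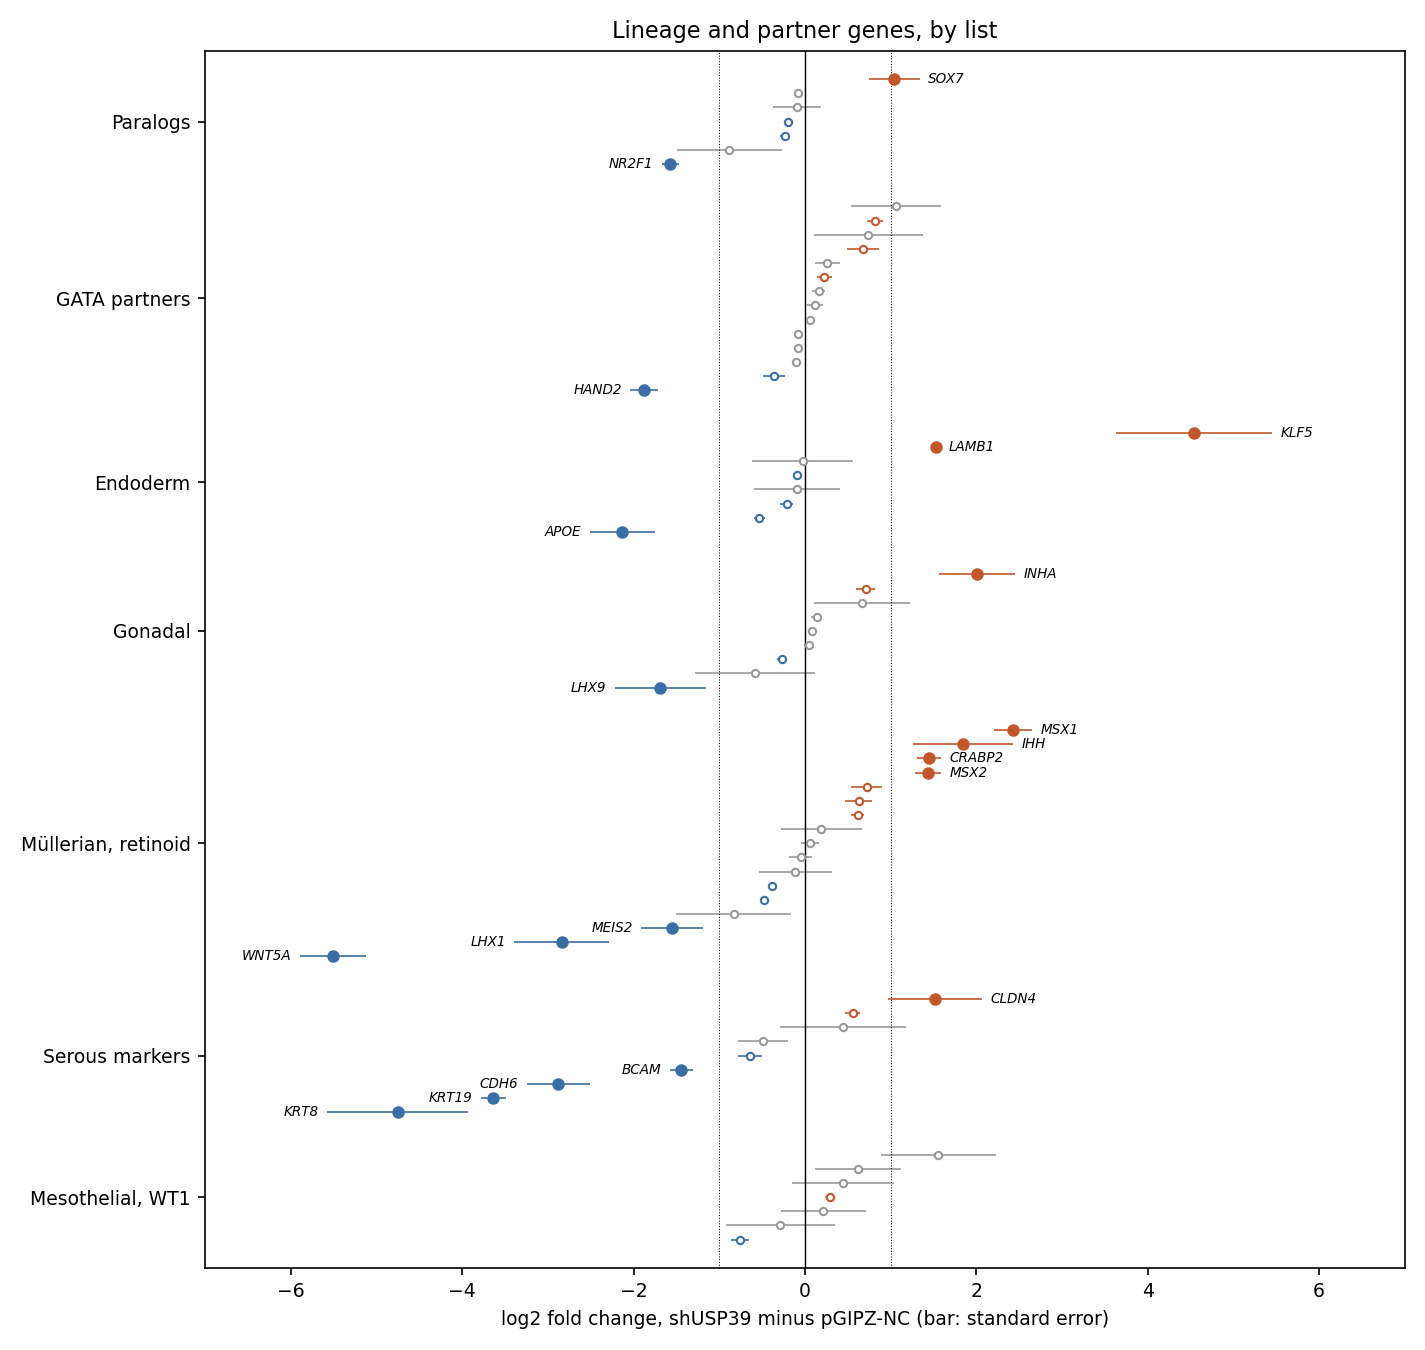
Log2 fold change (shUSP39 minus pGIPZ-NC, bar 1 standard error) of the tested genes on the 7 lists, less those not reported here, with genes past the adjusted p of 0.05 in orange (higher) or blue (lower) and the rest in grey. Filled, named points are also past 2-fold (dotted lines), and the paralog, endoderm, gonadal, Müllerian and serous lists each have such points on both sides of 0. The values of KLF5 and KRT8 depend on the prior count of the fit, since every library of pGIPZ-NC (KLF5) or shUSP39 (KRT8) had 3 counts or fewer.

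The serous label was checked on 24 markers, of which 5 are members of the list opened above. PAX8, SOX17 and MECOM were at 0 to 6 counts in every library, and WT1, EMX2 and FOLR1 had no row here and were not analysed. The other 9 markers with a row that could not be tested were at 0 to 17 counts in every library, the adhesion molecules EPCAM and CDH1 at most at 6, with the exception of MUC16, the CA125 antigen. MUC16 had 5, 1 and 1 counts in pGIPZ-NC and 6, 150 and 71 in shUSP39, so it stood out only in the shUSP39 replicates with the extra detected genes. EPCAM, CDH1 and MUC16 were named after their values were seen. KRT18, KRT19, BCAM and CDKN2A, which are not restricted to serous tumours, averaged 22.2, 24.2, 13.8 and 12.6 CPM in pGIPZ-NC. The counts of PAX8, SOX17 and MECOM thus did not bear out the serous label, with a limit. PAX8 has 4 RefSeq messenger RNAs and 1 row, and MECOM has 16 and 3 rows. How reads shared between transcripts were counted is not known, so the low counts of PAX8 and MECOM may reflect that handling. SOX17 has 1 messenger RNA and 1 row. The libraries are called here by the name of the line. Summed over the 18 markers that are no members and had a row, the level ran from 79.7 to 83.2 CPM in the controls and from 52.7 to 58.9 CPM with shUSP39. A few genes set this sum. Mean CPM in pGIPZ-NC and shUSP39 was 24.2 and 1.98 for KRT19, 13.8 and 5.15 for BCAM, and 12.6 and 8.20 for CDKN2A. KRT18 went the other way, at 22.2 and 33.1.

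Of these 18 markers 9 were tested, 2 were higher and 5 lower at the adjusted p, against 16.1% and 17.5% of all tested genes, and 5 were past both limits, against 6.81%. The list's median log2 fold change was -0.64. KRT19, a simple-epithelium keratin, fell from 821, 836 and 616 counts in pGIPZ-NC to 62, 68 and 51 in shUSP39 (log2 fold change -3.64, SE 0.14, edgeR adjusted p = 3.51e-17). KRT8 fell from 28, 37 and 26 counts to 3, 0 and 0, at least 9.85-fold lower (edgeR adjusted p = 4.13e-05). It had enough counts to be tested only through the pGIPZ-NC libraries. Its pairing partner KRT18 rose from 22.2 ± 1.69 to 33.1 ± 3.03 CPM (SD, n = 3; log2 fold change 0.56, edgeR adjusted p = 1.51e-05). CDH6, a cadherin of the renal and Müllerian epithelium, fell from 3.34 ± 0.996 to 0.461 ± 0.261 CPM (SD, n = 3), with log2 fold change -2.88 (SE 0.37, edgeR adjusted p = 4.94e-07).

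BCAM, a laminin receptor, fell from 13.8 ± 1.17 to 5.15 ± 0.325 CPM (SD, n = 3), with log2 fold change -1.44 (SE 0.14, edgeR adjusted p = 3.18e-09). CLDN4, a tight-junction protein, was at 11, 35 and 2 counts in pGIPZ-NC and at 37, 60 and 37 in shUSP39 (log2 fold change 1.51, SE 0.55, edgeR adjusted p = 0.035). The second control lay close to the lowest shUSP39 libraries, and CLDN4 did not pass without pGIPZ-NC replicate 1 (edgeR adjusted p = 0.131), pGIPZ-NC replicate 3 (0.124), shUSP39 replicate 2 (0.169) or shUSP39 replicate 3 (0.0518). CDKN2A, the gene of the cell-cycle inhibitor p16, fell with a log2 fold change of -0.64 (edgeR adjusted p = 0.000746), and SPON1, a matrix protein, was at 2.85 ± 0.511 and 2.07 ± 0.899 CPM (SD, n = 3; edgeR adjusted p = 0.215).

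Mesothelial genes and genes linked to WT1 made up a list of 24, of which 20 had a row and 8 were tested. At the adjusted p 2 were higher and 1 was lower, against 16.1% and 17.5% of all tested genes, and the list's median log2 fold change was 0.36. SPRY1, an inhibitor of receptor tyrosine kinase signalling, rose slightly (log2 fold change 0.29, edgeR adjusted p = 0.000257), and BCL2, an inhibitor of apoptosis, fell (-0.76, adjusted p = 1.08e-06). TJP1, a tight-junction scaffold, had 10 to 25 counts in pGIPZ-NC and 19 to 30 in shUSP39 (edgeR adjusted p = 0.788), and its direction changed without pGIPZ-NC replicate 2 or shUSP39 replicate 2.

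Markers of other cell types were counted beside these results. Of 19 markers 17 had a row and 8 were tested, and at the adjusted p 1 was higher and 4 were lower, against 16.1% and 17.5% of all tested genes. Their summed level ran from 1534 to 1584 CPM in the controls and from 874 to 922 CPM with shUSP39, and it was set by the collagen COL3A1, which fell from 1440 ± 28.3 to 819 ± 29.2 CPM (SD, n = 3; edgeR adjusted p = 1.5e-17). ACTA2, smooth-muscle actin, fell from 99.7 ± 1.08 to 62.0 ± 4.41 CPM (SD, n = 3; edgeR adjusted p = 2.78e-10). The proteoglycans LUM (176, 170 and 97 counts, then 16, 3 and 16) and DCN (31, 22 and 49 counts, then 0, 1 and 6) fell as well, with edgeR adjusted p values of 7.34e-09 and 0.000191. The collagen COL1A1, named after its values were seen, did not pass. It was at 7.42 ± 1.33 and 6.58 ± 0.607 CPM (SD, n = 3; edgeR adjusted p = 0.38), and its groups overlapped. HBA1, a globin gene whose near-identical copy makes its count uncertain, rose (log2 fold change 2.31, edgeR adjusted p = 0.00221). The 9 markers with a row that could not be tested had at most 13 counts in any library except VWF, an endothelial gene, with 9 to 10 counts in pGIPZ-NC and 10, 40 and 20 in shUSP39. CD68, a macrophage and lysosome gene named like VWF after its values were seen, had 295 to 375 counts in pGIPZ-NC and 322 to 382 in shUSP39, and its groups overlapped. The part of these mesenchymal genes in the fall of GATA6 and NR2F2 was not tested, and in bulk libraries fewer cells with a transcript and less of it per cell cannot be told apart.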

How the data were processed

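Total RNA of 6 A2780 libraries was sequenced, and the authors deposited a table of read counts, not normalized, with a row for each RefSeq mRNA. The submitters' processing notes name HISAT2, Cufflinks and hg19, and the counter and its handling of strand and of reads shared between transcripts are not given in the sources used here. A low count of a gene with many transcripts may reflect that handling. The authors' group means, fold changes, p-values and q-values in the same table were not used. Counts were summed per gene symbol, and 46 of 47 symbols turned into dates by a spreadsheet were restored.

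Genes kept by edgeR's filterByExpr were fitted with TMM scaling and the quasi-likelihood test (edgeR 4.0.16, limma 3.58.1, R 4.3.3), with Benjamini-Hochberg adjustment over all tested genes. A gene was called at an adjusted p under 0.05 and 2-fold. DESeq2 1.42.0, voom, other scalings and filters, a replicate block and leaving out libraries were alternatives. The scripts were tested on simulated data. CPM are counts per 1e6 counts of the library. Groups and replicate numbers came from the labels, and p-values measure only the spread between these samples.

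The text names the 10 members, the called genes of each list, the 3 other tested genes of each list with the highest mean CPM, and the 5 genes nearest to GATA6. Some of these genes enter the counts but are not reported here by name. Members and lists were chosen with earlier results of these data known. The members' difference between groups therefore carries no p-value, and the counts of the lists beside all tested genes are a description only. Intervals and floors cover counting error only. Per-length values divide by the annotated transcript length. Sequences came from GRCh37 with the GENCODE annotation, and from RefSeq promoters (GRCh38.p14), which held 8 of the 10 members.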

Additional observations from a re-analysis of the deposited data

How the results depend on the processing

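All 4 tested members kept their direction in every alternative run. GATA6 ranged from -6.03 to -7.72 on the log2 scale with a library left out, the lowest without shUSP39 replicate 2, and GATA3 from -4.95 to -8.16, the lowest without shUSP39 replicate 3. A minimum of 10 counts in every library removes both by construction, which leaves 0 members past the limits, 471 genes called, 3 gonadal genes and 4 serous markers past the adjusted p. Past both limits the main fit had 2 gonadal genes, 7 Müllerian genes and 5 serous markers, and this minimum leaves 0, 4 and 2. At a 1.5-fold limit 1226 genes were called. By Pearson correlation 0 of the 5 nearest genes were shared with those by distance, and 42 genes had r of at least 0.99. With no filter the median of all genes was 0.122.

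With a library left out, 677 to 836 genes were called, 2 members in each case, and at the adjusted p there were 3 to 6 GATA partners (3 without pGIPZ-NC replicate 3), 3 to 5 paralogs, 4 to 8 endoderm genes, 4 to 6 gonadal genes, 11 to 12 Müllerian genes, 6 to 8 serous markers and 3 to 4 mesothelial genes. Without both shUSP39 replicates 2 and 3, an alternative chosen after seeing the data in which the lone shUSP39 library is assumed to vary like the controls, there were 3 GATA partners. SOX7, LHX9, IHH, CLDN4, HHEX and LAMC1 each missed the threshold in some alternatives, INHA and CDKN2A only without both shUSP39 libraries. NR2F6, EP300, MED1 and CBX2 passed in some, and TJP1 changed sign. The cause was not tested.

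Replicate numbers were not taken to pair the libraries, since same-numbered libraries correlated at 0.0606, 0.00528 and 0.0166 and shUSP39 replicates 2 and 3 each correlated best with another number. With the replicate block 745 genes were called and 9 GATA partners passed the adjusted p, against 5 without it.

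Members with under 10 counts cannot be compared at this depth.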
